A study of Mus musculus with 14 samples.

Results

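The cytosolic ribosomal protein genes encode the proteins of the ribosome that translates nuclear mRNAs. They were taken as the protein-coding genes of the GENCODE mouse annotation (release M21, genome build mm10) whose symbol is Rpl, Rplp or Rps followed by a number and at most the letter a or x, which leaves out pseudogenes. This name rule gave 75 of 21755 protein-coding genes on the assembled autosomes and chromosome X, of which 43 belong to the large subunit (Rpl), 3 to its stalk (Rplp) and 29 to the small subunit (Rps). Each gene was called with a site when the middle of a listed H3K27ac site lay within 1 kb of any of its annotated transcription start sites (TSS). The rule used no measured value.

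A ribosome holds its proteins in fixed proportion, and these short genes are transcribed at high and coordinated rates in growing cells. Their mRNAs typically begin with a C followed by a run of pyrimidines, the 5′ terminal oligopyrimidine (TOP) tract, through which their translation follows nutrient and mTOR signalling. H3K27ac, acetylation of lysine 27 of histone H3, marks the nucleosomes that flank active promoters and enhancers, while the stretch just upstream of an active TSS is often poor in nucleosomes.

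The study followed immortalised mouse embryo fibroblasts (iMEF) in which ASH2L, a core subunit of the KMT2 complexes that methylate histone H3 at lysine 4, can be degraded. In all groups, controls included, the cells carried a lentiviral human ASH2L with an N-terminal FKBP12F36V tag, and by the study's methods the floxed endogenous Ash2l alleles had been deleted through Cre-ER, with the work done in 1 clone (NG3), which the labels do not name. H3K27ac ChIP-seq was done without dTAG and after 30 min, 2 h, 4 h, 8 h and 16 h of dTAG, the small molecule that sends the tagged protein to the proteasome, with 2 libraries per group (12 libraries in 6 groups) and 2 input libraries (no dTAG and 16 h). The deposited list joins the sites of all these libraries as positions only. It holds no value for any sample, so the sites below belong to the cells of all time points together, no change with dTAG and no replicate error can be given, and the read depth behind a site is unknown.

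The list held 122228 sites, of which 122171 lay on the chromosomes used. Of 10 fibroblast marker genes 8 had a site by the same rule, and in the other 2, Col1a1 and Prrx1, the principal TSS lay in a site whose middle was farther away. Of 15 marker genes of leukocytes, epithelium, endothelium, hepatocytes and pluripotent cells 2 had one (Krt8 and Cdh5).

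The sequences at several annotated TSSs of the ribosomal protein genes are shown first, because the positions of the sites below are counted from them. Each runs from 40 bases before the TSS to 20 bases from the TSS on, read 5′ to 3′ on the gene's strand from the GRCm38.p6 assembly, and capitals mark a tract of C and T that starts with C within 5 bases of the TSS. Rps24 and Rps2, small subunit proteins, had long tracts at the principal TSS, the start of the best supported main transcript in GENCODE. In Rpl5, Rpl13a, Rps3, Rps19 and Rps27a the tract stood at another annotated TSS of the gene.
Rps24, chr14:24490678-24490737, plus strand: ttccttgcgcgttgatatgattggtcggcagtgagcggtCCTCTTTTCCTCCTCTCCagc
Rps2, chr17:24720070-24720129, plus strand: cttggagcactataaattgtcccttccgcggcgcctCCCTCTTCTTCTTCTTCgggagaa
Rpl5, chr5:107900532-107900591, plus strand: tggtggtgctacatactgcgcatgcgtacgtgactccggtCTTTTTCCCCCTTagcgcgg
Rpl13a, chr7:45128718-45128777, minus strand: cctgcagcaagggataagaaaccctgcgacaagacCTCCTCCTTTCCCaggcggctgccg
Rps3, chr7:99483632-99483691, minus strand: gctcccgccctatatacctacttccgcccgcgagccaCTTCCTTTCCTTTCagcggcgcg
Rps19, chr7:24884593-24884652, plus strand: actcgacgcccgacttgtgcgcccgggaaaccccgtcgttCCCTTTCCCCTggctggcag
Rps27a, chr11:29547841-29547900, minus strand: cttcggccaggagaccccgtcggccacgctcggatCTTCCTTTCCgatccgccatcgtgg

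In these 7 windows the tract measured 18 bases in Rps24, 17 in Rps2, 14 in Rps3, 13 in Rpl5 and Rpl13a, 11 in Rps19 and 10 in Rps27a. All 7 of these TSSs lay inside an H3K27ac site. The windows were chosen for display after the data were seen, so this count is not a share of the members. Among all 47 members with a tract of at least 8 bases, 46 had the tract-bearing TSS inside a site. Over coding genes with such a tract the share was 38.3%, and a link between tract and site was not tested.

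Of the 75 cytosolic ribosomal protein genes, 72 (96%) had a site by the rule, against a background of 54.7% over all 21755 protein-coding genes (11908 genes). The large subunit had a site at 42 of 43 genes, the small subunit at 28 of 29 and the stalk at 2 of 3. CpG islands, the promoter type these genes mostly have, were within 1 kb of a TSS in 74 of 75, the exception being Rpl4, which lines the exit tunnel of the ribosome. The same held for 59.5% of all protein-coding genes and 96.2% of the mitochondrial ribosomal protein genes, which encode the separate ribosome of the mitochondrion. Among the 12874 other protein-coding genes with a CpG island 10295 had a site, and among the 78 mitochondrial ribosomal protein genes 76 (97.4%) did. The share with a site was thus close in both sets of ribosomal protein genes, and no test was made of either count.

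The genes without a site by the rule were Rpl38, Rplp0 and Rps3, and in all 3 a wide site lay over the principal TSS or just after it. Rpl38, a large subunit protein known for its part in the translation of Hox mRNAs, had a site of 2796 bp at chr11:114668575-114671370 that began 34 bp before its principal TSS and ran to 2761 bp after it. Rplp0, the scaffold of the stalk that recruits elongation factors, had one of 2340 bp at chr5:115559455-115561794, from 12 bp before to 2327 bp after the TSS. In Rps3, a protein of the mRNA entry channel, a site of 2394 bp at chr7:99481288-99483681 began 57 bp after the principal TSS. The middles of these 3 sites lay 1346.5, 1001.5 and 1149.5 bp from the nearest annotated TSS, just past the limit of 1 kb, because the sites were wide and lay almost wholly downstream. Among the genes inside the limit whose closest site middle was far from any TSS were Rpl36 (680 bp) and Rps4x (527 bp). With a window of 2 kb, or with any overlap of a site with the 1-kb window, all 75 genes had a site, against 56.8% and 55.8% of all coding genes.

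The sequences at the principal TSS of these 3 genes, cut as above, held no tract of at least 5 bases within 5 bases of the TSS and so have no capitals.
Rpl38, chr11:114668569-114668628, plus strand: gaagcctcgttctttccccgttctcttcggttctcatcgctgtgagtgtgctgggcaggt
Rplp0, chr5:115559427-115559486, plus strand: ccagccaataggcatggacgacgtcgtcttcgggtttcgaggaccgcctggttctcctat
Rps3, chr7:99483719-99483778, minus strand: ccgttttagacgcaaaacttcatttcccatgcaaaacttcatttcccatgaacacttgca

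In Rps3 the tract-bearing TSS printed earlier lay 87 bp downstream of this principal TSS, inside the site that the principal TSS missed.

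**Figure D1:**
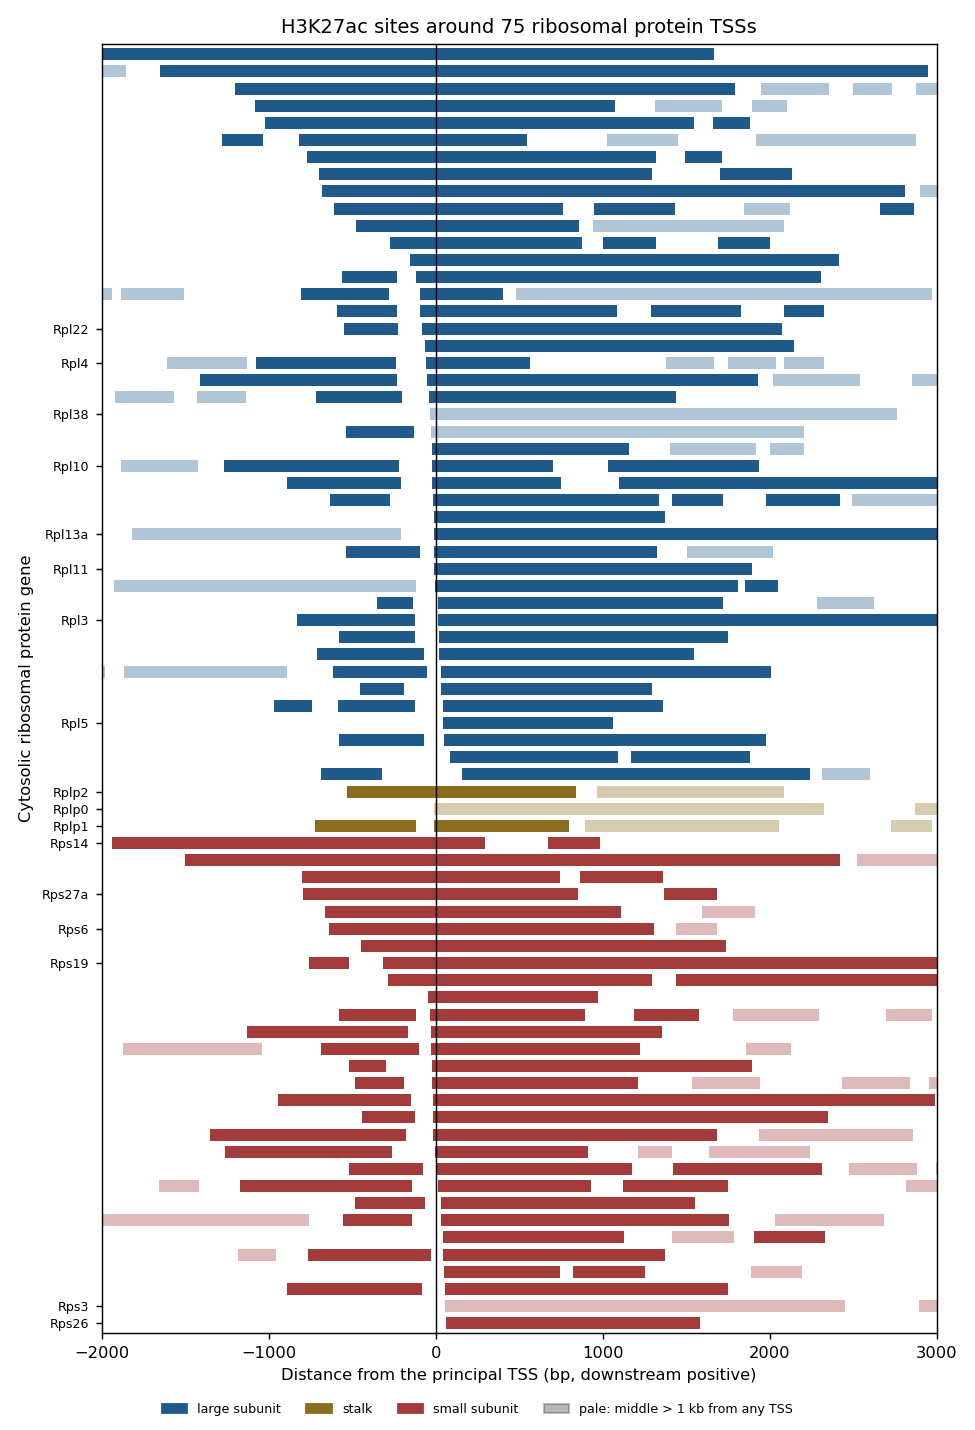
H3K27ac sites (bars) of the 75 genes, 1 line per gene, against the distance from the principal TSS in bp (0 at the vertical line, downstream to the right). Genes are ordered within each subunit by the edge of the site that holds the TSS or follows it. Only the genes without a site by the rule and a set of well-known members carry their names. Pale bars are sites whose middle is over 1 kb from any TSS of the gene, so that the rule did not count them. In 54 genes a bar crosses the line, and in 20 of the other 21 the nearest bar starts just to its right.

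Together the 72 genes held 146 distinct sites, with a median width of 915.5 bp (quartiles 428 and 1570 bp, range 200 to 4595 bp). The 19328 sites at all protein-coding promoters had a median of 740 bp (quartiles 398 and 1288 bp). Sites over 2000 bp made up 21 of the 146 (14.4%) and 9.58% of all coding promoter sites. One site was found at 18 ribosomal protein genes, 2 sites at 40 and 3 or more at 14. A single site was thus seen in 25% of the genes with a site, against 46.7% in other genes with a CpG island and 55.3% in the mitochondrial set. Such counts take in sites near any annotated TSS, so genes with more annotated TSSs can gather more sites. Rps19, the small subunit protein most often mutated in Diamond-Blackfan anaemia, had 5 sites, the farthest of which lay 5036 to 5344 bp after its principal TSS. Rpl18, Rpl23a, Rpl24 and Rpl26 had 4 each, and Rpl3, Rpl10, Rpl15, Rpl21, Rps9, Rps12, Rps20 and Rps24 were among those with 3.

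The base pairs in sites, summed per gene, had a median of 2189 bp (quartiles 1775 and 2679 bp). The same median was 1494 bp over all protein-coding genes with a site, 1562 bp over other genes with a CpG island and 1205 bp over the mitochondrial ribosomal protein genes. Of the 72 genes, 58 lay above the median of the other CpG island genes. Large and small subunit genes had close medians, 2313 and 2136 bp, and their ranges overlapped over most of their length. All these sums take in sites near any annotated TSS, which favours genes with many of them. The cytosolic genes had a median of 6 annotated TSSs, the mitochondrial set 4 and all coding genes 3. With the principal TSS only, the median sum of the cytosolic genes was 1680 bp, and no such value is given for the other lists.

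In the large subunit the highest sums were those of Rpl18 (5009 bp in 4 sites), Rpl10a (4595 bp in 1 site) and Rpl3 (4342 bp in 3 sites). Rpl3, which lies close to the peptidyl transferase centre, owed 3368 bp of its sum to a site that began 16 bp after the principal TSS. The single site of Rpl10a, at chr17:28326920-28331514, began 1648 bp before the principal TSS and ended 481 bp past the annotated end of the gene. The lowest sums were those of Rpl34 (408 bp), Rpl5 (1019 bp) and Rpl35 (1027 bp). The low value of Rpl34 came from the rule: its principal TSS lay in a further site, from 29 bp before to 2207 bp after the TSS, whose middle was too far away to count. In Rpl35 too, a site from 479 to 2971 bp after the principal TSS was not counted. Rpl5 and Rpl11 form, with 5S rRNA, the particle that binds Mdm2 when ribosome assembly is disturbed. Rpl5 had 1 site of 1019 bp and Rpl11 had 2 sites with 2460 bp in all, 1901 bp of it in a site that began 8 bp before the TSS.

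Further large subunit genes lay between these ends. Rpl13a, which is also known as a silencer of translation in the interferon response, had 1 site of 3574 bp. Rpl22, a protein that ribosomes can lack, had 2483 bp in 2 sites. Rpl4 had 1462 bp, of which the wider site (836 bp) lay wholly upstream, between 1075 and 240 bp before the TSS, beside Zwilch, a divergent gene that shares it. Of the stalk genes, Rplp1 had 1413 bp in 2 sites and Rplp2 1370 bp in 1 site. Not counted by the rule were further sites from 896 to 2058 bp after the TSS of Rplp1 and from 967 to 2087 bp after that of Rplp2. These acidic proteins form the dimers that Rplp0 carries.

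In the small subunit Rps19 (4652 bp) and Rps10 (4123 bp) had the highest sums, and Rps23 (1018 bp) and Rps29 (1124 bp) the lowest. Rps6, the substrate of the S6 kinases, had 1 site of 1944 bp from 636 bp before to 1307 bp after the TSS. Rps14, which lies close to the platform where mRNA is held, was among the few genes with most of the widest site upstream, from 1939 bp before to 292 bp after the TSS. Rps26, a protein at the mRNA exit, had 1 site of 1526 bp that began 60 bp after the TSS. Rps27a, made as a fusion with ubiquitin, had 1966 bp in 2 sites, the wider of which was centred 28 bp after the TSS and also held a TSS of Clhc1.

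The 4 members on chromosome X all had sites. Rpl10, a late-joining protein that completes the large subunit, had 3 sites with 2679 bp, and Rpl39, a protein of the exit tunnel, had 2 sites with 2748 bp. Rpl36a and Rps4x had 2 sites each, with 1521 and 1512 bp. The 4 sums fell within the range of the autosomal genes.

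**Figure D2:**
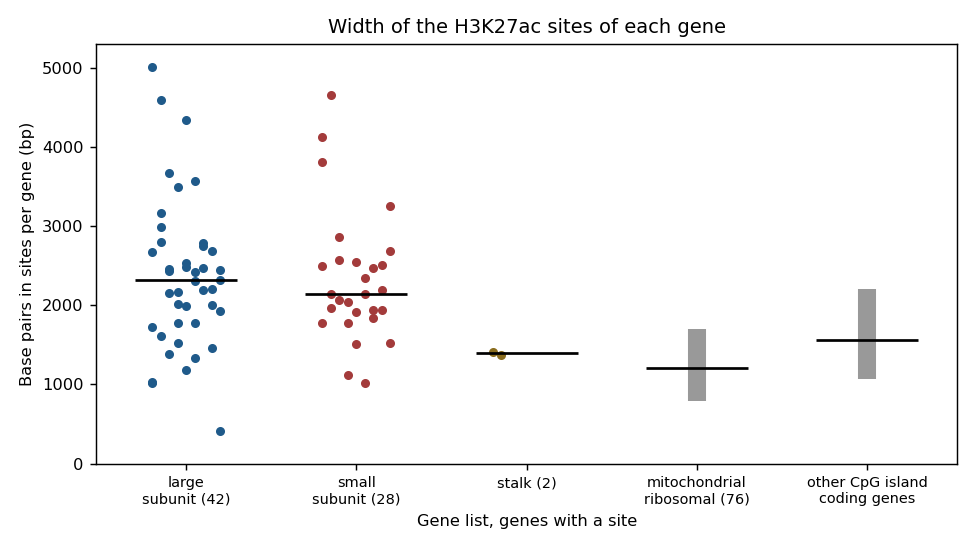
Base pairs in H3K27ac sites per gene (vertical axis, bp) for the genes with a site. Points are single large subunit (42), small subunit (28) and stalk (2) genes, black lines are medians, and grey bars give the quartiles of the mitochondrial ribosomal protein genes (76) and of other coding genes with a CpG island. The medians of the large and small subunit genes were 2313 and 2136 bp, against 1205 and 1562 bp in the other lists.

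The position of the sites around the TSS followed 1 pattern in most members. The principal TSS lay inside a site in 54 of 75 genes (72%), against a background of 38.4% over all protein-coding genes (8355 genes) and 57.3% over other genes with a CpG island. Where it lay inside, the site reached a median of 74 bp upstream and 1330.5 bp downstream. In other CpG island genes with the TSS inside a site, these medians were 361 bp upstream and 889 bp downstream. The upstream edge was no more than 100 bp from the TSS in 30 of the 54 genes (55.6%), against 33.9% of such other genes.

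In the remaining 21 genes the next site downstream began 6 to 156 bp after the principal TSS, with a median of 42 bp, and it was the nearest site in 20 of them. The smallest distances to a site were those of Rps9 (6 bp), Rpl17 (13 bp), Rpl3 and Rps12 (16 bp each) and Rpl31 (19 bp). The largest were those of Rpl41 (156 bp), which encodes the smallest ribosomal protein, Rpl27 (87 bp), Rps26 (60 bp), Rps3 (57 bp) and Rps16 (55 bp), followed by Rps29 (51 bp). In 15 of the 21 the TSS lay in a gap between an upstream and a downstream site that were both within 1 kb, and the gap measured 77 to 477 bp with a median of 142 bp. The 1515 gaps of this kind at other CpG island genes had a median of 170 bp. Of the members with a site, 20.8% had the TSS in such a gap. The share was 13.9% of all protein-coding genes with a site, 14.7% of other CpG island genes with one and 15.8% of the mitochondrial set.

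Base by base, 40% of the 75 genes were covered by a site at 68 bp before the principal TSS, the lowest value within 500 bp on either side. Coverage was 72% at the TSS itself. At 156 bp after it, the first base where this was so, a site covered all 75 genes. At 300 bp coverage was 98.7%. It was still 98.7% at 500 bp and 85.3% at 1000 bp downstream. On the upstream side 68% of the genes were covered at 500 bp and 25.3% at 1000 bp.

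The mitochondrial ribosomal protein genes had close values at the TSS and differed on both sides of it. Upstream, 56.4% of them were covered at 100 bp, against 42.7% of the cytosolic genes, and 43.6% at 500 bp, against 68%. Their lowest coverage within 500 bp of the TSS was 41.0%, at position -448. Coverage was 71.8% at their TSS and rose to 96.2% at 111 bp after it, but it was 16.7% at 1000 bp downstream. Other genes with a CpG island were covered in 57.3% at the TSS, in at most 73.4% (at 182 bp after it) and in 34.6% at 1000 bp downstream. The whole first 1 kb lay in sites in 38 cytosolic ribosomal protein genes (50.7%), in 8.97% of the mitochondrial ones and in 23.3% of the other CpG island genes. The lowest value among the 75 genes was that of Rpl35a, with 54.8% of the first 1 kb covered. Averaged over 1 kb, coverage was 52.4% upstream and 94.6% downstream in the cytosolic genes, and 43.5% and 68.1% in the mitochondrial genes. These shares are descriptions of 1 list of sites, and genes are not replicates of a condition.

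**Figure D3:**
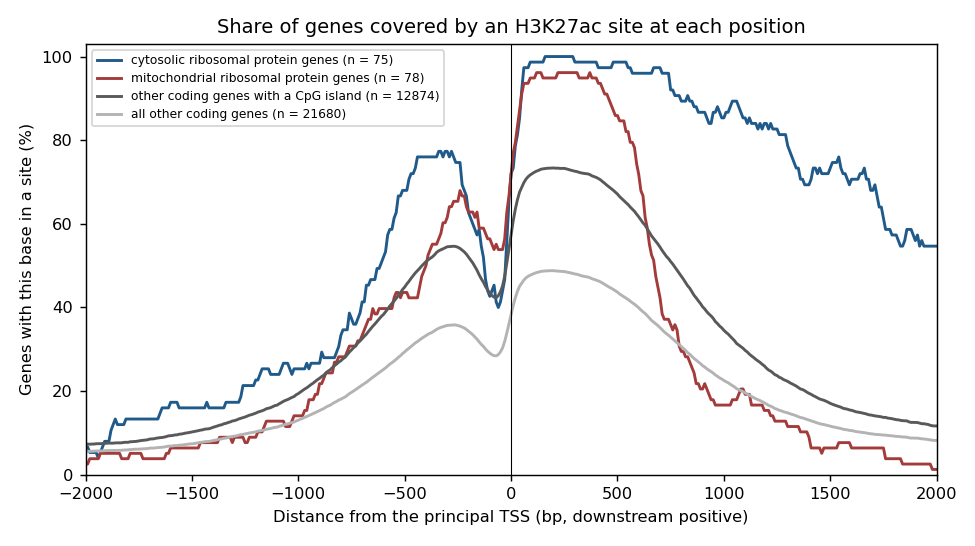
Share of genes (vertical axis, %) with each base inside an H3K27ac site, against the distance from the principal TSS (horizontal axis, bp), for the 75 cytosolic and 78 mitochondrial ribosomal protein genes, 12874 other coding genes with a CpG island and all other coding genes. All lists dip just before the TSS. The cytosolic genes reach 100% after the TSS and stay at 85.3% at 1000 bp, where the mitochondrial genes are at 16.7%.

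The downstream sites took up much of these genes, which are short: the median gene length was 3243 bp in the 75 genes, 7899.5 bp in the mitochondrial set and 25764.5 bp in other CpG island genes. Sites covered more than 50% of the gene body in 51 of the 75 genes. The median over the genes with a site was 64.4%, against 10.2% in the mitochondrial set and 7.10% in other CpG island genes. The gene body lay wholly in sites in 4 genes, Rpl36 (828 bp), Rps15 (1662 bp), Rpl10a (2563 bp) and Rpl13a (3204 bp). Neither this count nor that of genes covered over more than 50% is given for other lists. Neither can therefore be called high or low. Within the first 1 kb of the principal transcript, sites held 92.9% of the exonic and 95.1% of the intronic bases of the ribosomal protein genes with a site. In other genes with a CpG island and a site the values were 84.3% and 70.8%. The widest site was centred downstream of the principal TSS in 61 of the 72 genes (84.7%), with a median of 622 bp after it, against 75.4% and 304 bp in other CpG island genes. This order held for the widest site only: for the site with its middle nearest to the TSS the medians were 11 and 203.5 bp.

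In 12 of the members a site also held a TSS of another coding gene, and for these the site cannot be given to 1 promoter. The share over all coding genes is not given, so this count cannot be called high or low. The widest were those of Rps10 with the readthrough gene RPS10-NUDT3 (3923 bp), Rpl7 with Rdh10 (3671 bp), Rpl12 with Lrsam1 (3491 bp) and Rpl18 with Sphk2 (3343 bp). They were followed by Rps25 with Trappc4 (2188 bp), Rpl41 with Zc3h10 (2083 bp), Rpl9 with Lias (1995 bp), Rps27 with Rab13 (1773 bp) and Rps27a with Clhc1 (1649 bp). Rps24 shared a site of 952 bp with Polr3a, Rpl4 one of 836 bp with Zwilch and Rps18 one of 797 bp with Vps52, and in Rps18 and Rps24 this was not the widest site of the gene.

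Pyrimidine tracts were then counted at the TSSs. A tract that starts with C, runs for at least 5 bases and begins within 5 bases of the TSS stood at the principal TSS of 22 of the 75 genes (29.3%), against 18.2% of all protein-coding genes. For tracts of at least 8 bases these shares were 20% (15 genes) and 4.42%. When any annotated TSS of a gene could carry the tract, 47 ribosomal protein genes (62.7%) had one of at least 8 bases, against 14.3% of all coding genes and 11.5% of the mitochondrial set. This count, chosen after the data were seen, favours genes with many annotated TSSs, of which the cytosolic ribosomal protein genes had a median of 6, the mitochondrial set 4 and all coding genes 3. The longest tracts were those of Rpl27a (20 bases), Rpl7 (19 bases), Rpl34 and Rps24 (18 bases each). Rps6 had 6 bases in GENCODE and 10 at a RefSeq start. RefSeq promoters (GRCm38.p6) matched 55 of the 75 genes by symbol, and 20 of these (36.4%) had a tract of at least 8 bases, against 5.26% of 16433 coding genes.

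**Figure D4:**
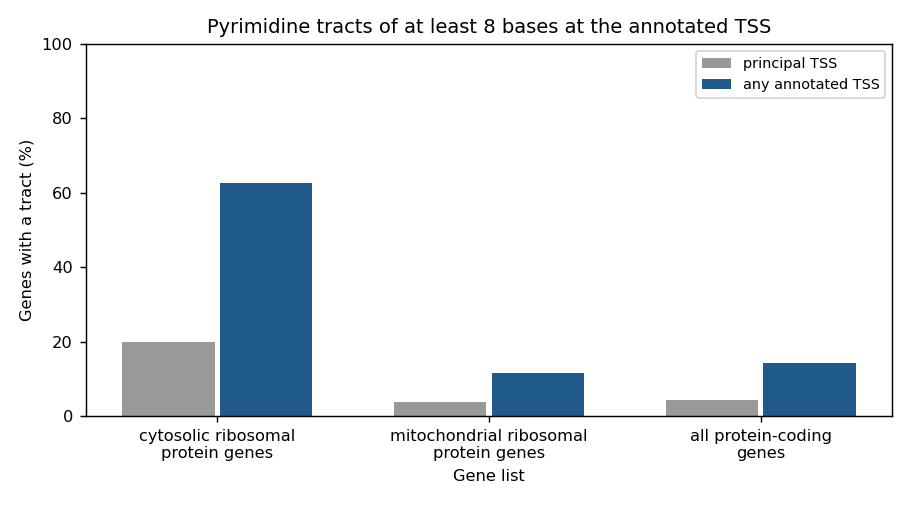
Share of genes (vertical axis, %) with a pyrimidine tract of at least 8 bases at the principal TSS (grey) and at any annotated TSS (blue), for the cytosolic and mitochondrial ribosomal protein genes and all protein-coding genes. The share in the cytosolic ribosomal protein genes went from 20% to 62.7% between the 2 counts, and in all coding genes from 4.42% to 14.3%.

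The choice of TSS changed how many members had their TSS inside a site. In the 47 genes with a tract of at least 8 bases, the TSS that carried it differed from the principal one in 36. Over all 47, counting also the genes where both were the same, it lay a median of 41 bp downstream of the principal TSS. At the principal TSS 36 of the 47 (76.6%) were inside a site, and at the tract-bearing TSS 46 of the 47 (97.9%) were. In all, 10 genes entered a site, among them Rpl5, Rpl29, Rpl31, Rpl36a, Rps3, Rps7, Rps9, Rps12 and Rps28, and none left one. Rpl27, whose site began 87 bp downstream, was outside at both. Coverage of all cytosolic ribosomal protein genes, with or without a tract, was 72% at the principal TSS. This coverage was 85.3% at 40 bp and 97.3% at 60 bp downstream of that TSS. A short downstream shift thus raised the share inside a site without regard to the tract, and a link to the tract was not tested. Over the 3105 coding genes with a tract of at least 8 bases, 47.9% were inside a site at the principal TSS and 38.3% at the tract-bearing TSS. How far apart these TSSs lay is not given, so this fall cannot be compared with the rise above.

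Short motifs were searched on both strands from 250 bases before to 50 bases from the principal TSS on. CCGGAAG, the core bound by ETS factors such as GABPA, was present in 22 of the 75 genes (29.3%), including Rpl11, Rplp1, Rplp2, Rps6 and Rps26, against 11.3% of all coding genes, 16.6% of other genes with a CpG island and 37.2% of the mitochondrial set. AAGATGG, the core of the YY1 motif, was found in 9 (12%), against 6.38% of all coding genes, 6.91% of other CpG island genes and 17.9% of the mitochondrial set. CACGTG, the E-box that MYC binds, was found in 10 (13.3%), Rpl13a, Rplp2 and Rps2 among them, against 7.80%, 10.3% and 6.41% in the same lists. GGGCGG, the GC box bound by SP1, stood in 36 (48%), against 45.8% of all coding genes, 67.1% of other CpG island genes and 48.7% of the mitochondrial set. TATAAA was present in 8 (10.7%), among them Rpl3, Rplp0 and Rps2, below the 12.6% of all coding genes but above the 6.77% of other CpG island genes and the 8.97% of the mitochondrial set. A motif match here is a run of letters and not a measured binding site.

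Genes close to the 75 by function or descent were read from lists fixed alongside them. The 4 core ribosomal protein genes on the list whose names fall outside the rule all had sites, among them Rpsa (2694 bp), Rps3a1 (1768 bp) and Fau (2104 bp). In Rpsa and Rps3a1 the widest site began 40 and 68 bp after the principal TSS, as in many of the 75. Of the paralogs, Rpl7l1, Rpl22l1, Rpl36al and Rps27l had a site, while Rpl3l, Rpl10l, Rpl39l and Rps27rt, the first of which is a muscle form, had none. The 16 translation factor and other TOP genes all had a site, with a median of 2078 bp, and so did the 16 ribosome biogenesis genes, with a median of 1954 bp.

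Ribosomal protein genes have many processed pseudogenes, copies without introns to which short reads can also align. Of 283 named ribosomal protein pseudogenes 13 (4.59%) had a site by the same rule, against 3.87% of 9849 processed pseudogenes of all kinds. The widest was the site at Rpl7a-ps8 (2467 bp). Of the 75 genes, 58 had at least 1 named pseudogene, and Rpl31 had the most, 24. Reads lost or gained at the exons of the parent genes through these copies cannot be seen in a list of positions, and their part in the widths was not tested. Within the first 1 kb of the principal transcript, sites held 92.9% of the exonic and 95.1% of the intronic bases, as given above. These shares were not used to test the part of the copies.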

How the data were processed

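H3K27ac ChIP-seq was analysed in 12 libraries and 2 inputs from iMEF. By the study's methods the authors used Trim Galore for trimming and BWA for alignment to mm10, filtered reads after ENCODE, merged the replicates and called narrow peaks with MACS (MACS2 in the submitters' processing notes, version not given in the sources used here). The deposited table gives, per the file headers, the chromosome, start and end of each site found across all samples, in another unit than counts or signal: base positions. How the sites were joined is not stated, and neighbouring sites stayed separate, which sets their number and width. Starts were taken as 0-based, as MACS writes them, and are printed 1-based.

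Sites were compared with GENCODE M21 and with GRCm38.p6 sequence in Python 3.11.15 with numpy 2.4.6 and pandas 2.3.3. The principal TSS is that of the transcript with the best APPRIS rank, then support level, then length. CpG islands were found in repeat-masked sequence by scoring each CpG 17 and each other base -1, and kept from 200 bp, 50% GC and an observed to expected ratio of 0.6. The measures were tested on simulated data. No test was run, because the list has no value per sample. Named genes were all members without a site, the ends of each ranking (5 each), members with 3 or more sites, those on chromosome X, those wholly covered, those sharing a site and a list of well-known members. Members, lists and motifs were chosen with earlier results of these data known. Windows at tract-bearing TSSs were added after the data were seen. The alternatives changed the window, the TSS, the site list and the tract. Values of a few members are not reported here.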

Additional observations from a re-analysis of the deposited data

How the results depend on the processing

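Of 37 alternatives over 6 results, 4 of which were chosen after the data were seen, 15 stayed within the 95% interval of the reported value and 22 moved past it. That interval treats the genes as independent draws, which they are not, so it is only a yardstick and gives no measurement error. A site was found at 88% of the members within 500 bp, 100% with 2 kb or any overlap, 85.3% with the outermost 5′ end only and 82.7% with sites less than 1 kb apart merged, where wider sites have their middles farther away. Over all coding genes these shares were 50.1%, 56.8%, 55.8%, 49.6% and 50.7%. The median base pairs in sites were 1774.5 with 500 bp, 2507 with 2 kb, 1680 with the principal TSS only, 2694 with merged sites and 1614 for the widest site alone. The TSS was inside a site in 92% with merged sites, within 100 bp of one in 98.7% (all but Rpl41), and inside one in 85.3% when the tract-bearing TSS replaced the principal one. No such shares are given for other genes, so these cannot be called high or low. The median site middle was 11 bp after the TSS, in place of 622 bp, for the site nearest to the TSS by its middle, since upstream and downstream sites then mix. By that measure the median was 203.5 bp in other genes with a CpG island and 272 bp in the mitochondrial set, both farther downstream than in the members. CpG islands of at least 500 bp were near 82.7%, and an island covered the TSS base in 76%, again without a share over other genes. The tract share was 12% at the exact TSS base, 42.7% within 10 bases, 20% from 8 bases, 77.3% at any annotated TSS, 62.7% there from 8 bases and 49.1% at RefSeq starts. Over all coding genes these tract shares were 2.27%, 30.8%, 4.42%, 45.7%, 14.3% and 21.9%.

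No paired analysis was possible because positions were given without a column per sample. For the same reason no replicate was left out, and no depth or counting interval is given. The list does not say at which time point a site was found. The 75 genes share 1 set of libraries and are not independent. Widths depend on where the authors' peak calling split neighbouring sites, as the median of 2694 bp after merging shows.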
